A study of Homo sapiens with 6 samples.

Results

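Heterotrimeric G proteins were examined through 10 genes for their subunits: the gamma genes GNG5, GNG10, GNG11 and GNG12, the beta genes GNB1, GNB2 and GNB4, and the alpha genes GNAI2, GNAI3 and GNAS. They are the rows of the deposited gene table that carry these 10 symbols, out of 58735 genes, and all 10 symbols were found once. The list was chosen by the FPKM of GNG11 in the comparison below, where it was lower after si-circ_0000839, so the levels of the 10 genes in that comparison are a description and no test of them is used as support. RNA had been sequenced from TPC1, an established cell line of papillary thyroid cancer, in 6 libraries. In 3 of them the cells had received si-circ_0000839, an siRNA against the circular RNA hsa_circ_0000839, and in 3 the NC siRNA. Both groups were kept for 60 h after transfection and share the cell line and a medium of DMEM with 10% serum. The comparison asks which genes differ in level once the circular RNA has been targeted. The circular RNA itself has no row in the gene table, so its depletion was not checked here.

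A heterotrimeric G protein passes the signal of a seven-helix receptor into the cell. The alpha subunit binds GDP in the resting complex, exchanges it for GTP when the receptor is activated, and then acts on its own effectors, while the beta and gamma subunits stay together as a dimer that acts on others. The gamma subunit carries a lipid, attached to a cysteine near its C terminus, that holds the dimer at the membrane. GNG11 and the rod phototransduction subunit GNGT1 are farnesylated, whereas most gamma subunits are geranylgeranylated. GNAS encodes the alpha subunit that stimulates adenylyl cyclase, the pathway through which the thyrotropin receptor acts in thyroid cells, and GNAI2 and GNAI3 encode alpha subunits that inhibit it.

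The coding sequences of 3 measured gamma genes and of GNGT1, which lies beside GNG11, are shown because they carry the lipid attachment signal by which GNG11 differs from GNG5 and GNG12. They were read from GENCODE release 29 (GRCh38) and run 5′ to 3′ from start to stop codon, and the capitals mark the 12 bases of the last 4 codons before the stop, which begin with the cysteine codon. GNG11 and GNGT1 are encoded on the plus strand of chromosome 7, with coding parts that span chr7:93922138-93926216 and chr7:93906747-93910918. GNG12 and GNG5 lie on the minus strand of chromosome 1, with coding spans of chr1:67705451-67707686 and chr1:84501845-84506091. Each coding sequence is split over 2 exons.
GNG11: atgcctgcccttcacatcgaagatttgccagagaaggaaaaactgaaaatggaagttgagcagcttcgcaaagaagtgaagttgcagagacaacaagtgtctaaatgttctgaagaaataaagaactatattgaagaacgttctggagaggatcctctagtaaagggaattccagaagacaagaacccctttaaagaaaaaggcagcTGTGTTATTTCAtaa
GNGT1: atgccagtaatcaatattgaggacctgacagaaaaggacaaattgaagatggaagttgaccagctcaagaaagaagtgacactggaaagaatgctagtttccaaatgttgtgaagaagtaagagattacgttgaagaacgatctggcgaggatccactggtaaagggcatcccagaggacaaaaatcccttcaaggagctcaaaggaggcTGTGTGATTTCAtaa
GNG12: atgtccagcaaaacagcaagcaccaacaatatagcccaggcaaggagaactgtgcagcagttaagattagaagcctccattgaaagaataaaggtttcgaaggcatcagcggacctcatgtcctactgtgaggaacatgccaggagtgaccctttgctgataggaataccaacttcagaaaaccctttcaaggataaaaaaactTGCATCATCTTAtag
GNG5: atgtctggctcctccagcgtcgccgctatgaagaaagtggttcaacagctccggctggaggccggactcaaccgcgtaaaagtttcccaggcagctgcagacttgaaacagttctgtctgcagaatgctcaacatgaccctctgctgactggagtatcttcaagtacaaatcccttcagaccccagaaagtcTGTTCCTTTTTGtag

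Aligned over their whole coding length, GNG11 and GNGT1 matched at 167 of 225 aligned positions (74.2%), and 11 of the 12 bases in capitals were the same. GNG11 matched GNG5 at 51.5% of positions and GNG12 at 50.9%. Of these 3 genes the nearest to GNG11 in sequence was thus GNGT1, which had 2 reads in all 6 libraries together.

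The libraries held 18399558 to 19334633 reads recovered from the deposited values and 20533 to 21088 genes above 0. Levels are in FPKM, which scales the fragments of a gene by its length and by a size set for the library. In the deposited values this size was 0.9578 (NC replicate 2) to 1.0235 (NC replicate 3) times the recovered reads. A gene was tested where its mean was at least 1 FPKM, which left 10674 genes and 9 of the 10 subunit genes, all but GNG10. Changes are given as differences of log2(FPKM + 1), si-circ_0000839 minus NC, with the standard error from limma, and this scale understates changes of genes at low levels. A gene was called where the adjusted p of limma, by Benjamini-Hochberg, was under 0.05. The labels do not say whether replicate libraries came from separate cultures, and the spread behind each p-value may be technical. In bulk RNA, a smaller number of cells that express a gene cannot be told apart from less RNA per cell.

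GNG11 was the gamma subunit gene with the highest level and the subunit gene with the largest difference between the groups. It lies at chr7:93921699-93928610 on the plus strand (GRCh38, ENSG00000127920), has 2 exons, and no other annotated gene overlaps it. Its level after si-circ_0000839 was 53.96, 55.79 and 52.86 FPKM in replicates 1 to 3, a mean of 54.2 ± 1.48 (SD, n = 3). In the NC libraries it was 70.62, 82.07 and 74.51 FPKM, a mean of 75.7 ± 5.82 (SD, n = 3). Every si-circ_0000839 library lay below every NC library, and the level after si-circ_0000839 was 0.716 times that in NC. The difference was -0.47 (SE 0.07) on the log2 scale, from 2972 to 4558 reads per library. The NC libraries spread more widely (coefficient of variation 7.69%) than the si-circ_0000839 libraries (2.73%), with NC replicate 2 the highest of the 6.

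Of all tested genes, 0.384% were called (41 genes), 0.253% as lower (27 genes) and 0.131% as higher (14 genes). GNG11 was among the 27 called lower, and it was the only called gene of the 9 subunit genes tested; since this comparison chose the list, nothing is read from that count. Groups did not overlap for 18.1% of all tested genes, 7.55% in the lower and 10.6% in the higher direction, and among the 9 subunit genes this held for GNG11 alone. The call for GNG11 was lost when si-circ_0000839 replicate 1, si-circ_0000839 replicate 3 or NC replicate 3 was left out, with log2 differences between -0.52 and -0.41 over the 6 libraries left out in turn.

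**Figure D1:**
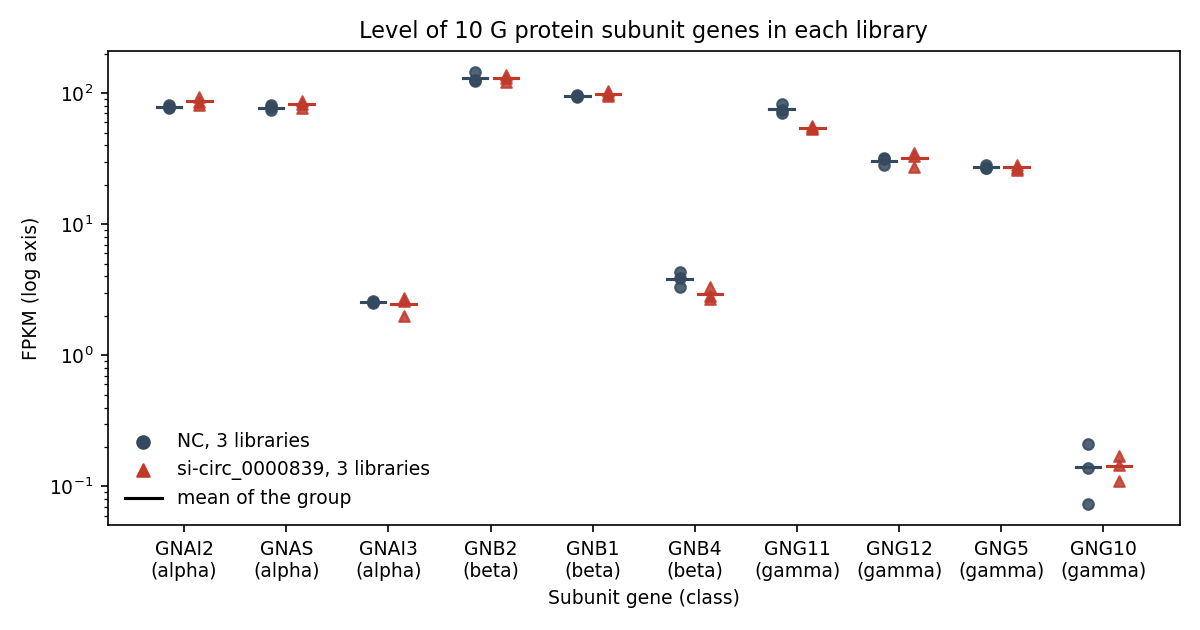
Level of each of the 10 subunit genes in each library (FPKM, log axis), with 1 point per library, NC in blue and si-circ_0000839 in red. GNG11 is the gene whose groups lie apart, at 52.86 to 55.79 against 70.62 to 82.07 FPKM, and levels run from about 0.1 for GNG10 to over 100 FPKM for GNB2.

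The other 2 gamma genes with a mean above 1 FPKM on the list lay at less than the level of GNG11 and did not differ beyond the spread of the libraries. GNG12 (chr1:67701466-67833467, minus strand, ENSG00000172380) encodes a widely expressed gamma subunit. It was at 27.38, 34.85 and 33.17 FPKM after si-circ_0000839 and at 32, 28.12 and 31.2 in NC. The lowest value of each group was in the library that stood apart by GC content, described further on, and the groups overlapped, with means of 31.8 ± 3.92 and 30.4 ± 2.05 FPKM. GNG5 (chr1:84498325-84506565, minus strand, ENSG00000174021), also widely expressed, was at 28.49, 25.83 and 27.02 FPKM after si-circ_0000839 and 27.07, 28.54 and 26.97 in NC. Its means were 27.1 ± 1.33 and 27.5 ± 0.882 FPKM, and its log2 difference was -0.02 (SE 0.07) against 0.06 (SE 0.09) for GNG12. GNG5 shares 344 exon bases with AL359762.3 on its own strand, which had 0 to 3 reads per library, and 119 with SPATA1 on the other strand. GNG12-AS1 lies within the span of GNG12 but shares 0 exon bases with it.

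GNG10 (chr9:111661335-111670246, plus strand, ENSG00000242616) was scarcely measured in this table, with 2 to 6 reads per library and 24 reads in all. Its level was 0.1463, 0.1705 and 0.1093 FPKM after si-circ_0000839 and 0.1383, 0.07379 and 0.2113 in NC, with wholly overlapping groups. Of its 1491 exon bases, 1090 (73.1%) also belong to DNAJC25-GNG10, a read-through gene on the same strand. DNAJC25-GNG10 itself had 0 to 1 reads per library. How reads that fit more than 1 gene were counted is not given in the sources used here, so the low value of GNG10 is uncertain.

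The summed level of the 12 listed gamma genes was 119.1, 124.6 and 121.6 FPKM after si-circ_0000839 and 138, 147.4 and 141.4 in NC. The groups did not overlap, and the sum after si-circ_0000839 was 0.856 times that in NC (121.8 ± 2.73 against 142.3 ± 4.80 FPKM, SD, n = 3). Without GNG11 the sum was 67.6 ± 2.10 against 66.5 ± 1.03 FPKM, with overlapping groups. GNG11 made up 45.3%, 44.78% and 43.45% of the sum after si-circ_0000839 and 51.19%, 55.67% and 52.7% in NC. GNG12 made up 26.1 ± 2.70% against 21.5 ± 2.13% and GNG5 22.3 ± 1.59% against 19.4 ± 0.273%. Shares of 1 sum are tied to each other, so a smaller GNG11 part enlarges the share of every other gene without any change in its level. GNG4, the other gamma gene above 1 FPKM, was at 7.72 FPKM after si-circ_0000839 and 7.62 in NC (adjusted p = 0.959 in limma).

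**Figure D2:**
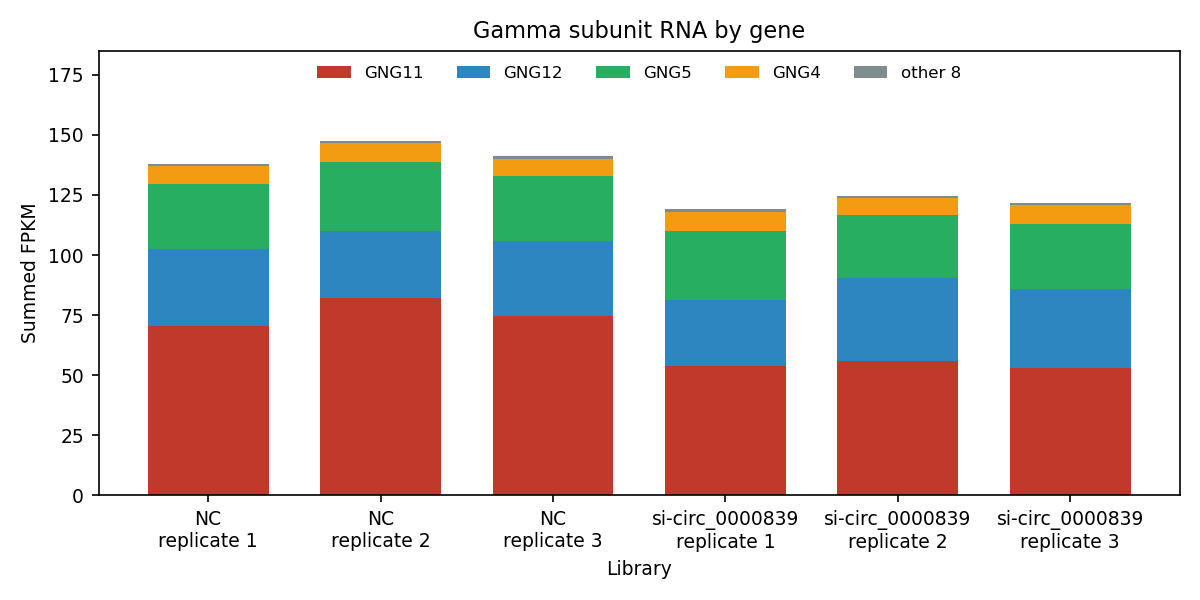
Summed level of the 12 listed gamma genes in each library (stacked bars from 0, FPKM), split into GNG11, GNG12, GNG5, GNG4 and the other 8 genes. The GNG11 segment takes 43.45% to 45.3% of the bar in the si-circ_0000839 libraries and 51.19% to 55.67% in the NC libraries, while the levels of GNG12 and GNG5 overlap between the groups.

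The beta subunits, propeller-shaped proteins that bind a gamma subunit tightly, were led by GNB2 and GNB1. GNB2 (chr7:100673531-100679174, plus strand, ENSG00000172354) was at 136.9, 121.8 and 130.1 FPKM after si-circ_0000839 and 126.9, 144.1 and 123.7 in NC. GNB1 (chr1:1785285-1891117, minus strand, ENSG00000078369) was at 103.2, 94.64 and 97.85 FPKM after si-circ_0000839 and 96.77, 93.82 and 94.28 in NC. Both pairs of groups overlapped, with log2 differences of -0.02 (SE 0.08) for GNB2 and 0.05 (SE 0.07) for GNB1. The sum of the 5 beta genes was 234.1 ± 11.7 FPKM after si-circ_0000839 and 233.2 ± 9.89 in NC.

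GNB4 (chr3:179396089-179451590, minus strand, ENSG00000114450), a beta subunit at far lower levels than the other 2, came closest to a difference after GNG11. It was at 2.667, 3.346 and 2.835 FPKM after si-circ_0000839 and 3.912, 3.315 and 4.293 in NC, from 344 to 575 reads per library. The groups met only where si-circ_0000839 replicate 2 stood just above NC replicate 2. The means were 2.95 ± 0.354 and 3.84 ± 0.493 FPKM, a ratio of 0.768, and the log2 difference of -0.29 (SE 0.10) did not pass the threshold. GNB4 shares 1941 exon bases with AC007620.2 on the other strand, which had 0 reads. GNB5, the beta subunit that pairs with RGS proteins and the only other beta gene above 1 FPKM, was at 2.78 and 2.57 FPKM (adjusted p = 0.733 in limma). Its groups did not overlap, as for 18.1% of all tested genes.

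Among the alpha subunits, GNAI2 and GNAS had nearly equal levels with the deposited gene lengths. With the lengths of their principal transcripts they were at 256.4 and 541.5 FPKM. GNAI2 (chr3:50226292-50259355, plus strand, ENSG00000114353) was at 92.93, 81.38 and 85.01 FPKM after si-circ_0000839 and 77.72, 81.48 and 76.97 in NC. GNAS (chr20:58839718-58911192, plus strand, ENSG00000087460) was at 87.7, 77.47 and 83.02 FPKM after si-circ_0000839 and 80.52, 78.05 and 74.25 in NC. In both genes si-circ_0000839 replicate 1 was the highest of the 6 libraries and the groups overlapped, with log2 differences of 0.13 (SE 0.07) and 0.09 (SE 0.07). GNAS-AS1, which shares 1127 exon bases with GNAS on the other strand, had 11 to 23 reads per library against 18831 to 21420 for GNAS.

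GNAI3 (chr1:109548611-109618321, plus strand, ENSG00000065135) was at 1.997, 2.614 and 2.741 FPKM after si-circ_0000839 and 2.563, 2.502 and 2.582 in NC. The NC libraries lay close together (coefficient of variation 1.64%), and the wider spread of the other group (16.3%) came from the low value of si-circ_0000839 replicate 1. The low FPKM rests on 995 to 1397 reads, because the annotated gene is 27174 bases long. GNAT2 shares 1339 of these bases on the other strand and had 0 reads. AMPD2 shares 132 bases on the same strand and had 1853 to 2224 reads per library, so reads over these bases cannot be assigned to 1 gene.

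The sum of the 16 listed alpha genes was 246.1 ± 13.8 FPKM after si-circ_0000839 and 231.6 ± 5.64 in NC, with overlapping groups. The alpha genes outside the 10 that reached 1 FPKM were also not called. GNA12, which couples receptors to RhoA, was at 37.1 ± 1.996 against 34.2 ± 1.30 FPKM (adjusted p = 0.556 in limma). Its groups did not overlap, as for 18.1% of all tested genes. GNA11 and GNAQ, which activate phospholipase C beta, were at 26.17 against 27.02 FPKM (adjusted p = 0.844 in limma) and 4.39 against 4.60 (adjusted p = 0.851 in limma). GNA13, a relative of GNA12, was at 4.99 against 4.79 FPKM. The median log2 difference was 0.06 over the 7 tested alpha genes, 0.02 over the 4 beta genes and -0.00 over the 4 gamma genes, beside 0.01 over all 10674 genes.

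**Figure D3:**
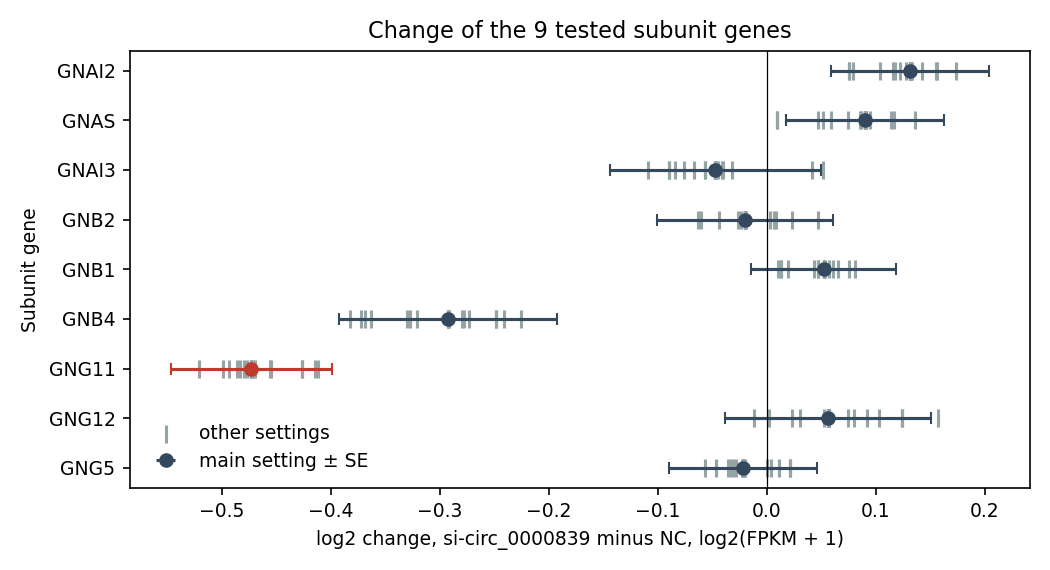
Difference of log2(FPKM + 1) between si-circ_0000839 and NC for each tested subunit gene, with the point and bar as the value and its standard error and the further marks as the values under other settings. GNG11 lies at -0.47 and between -0.52 and -0.41 over the settings, GNB4 lies at -0.29, and the other 7 lie between -0.05 and 0.13 in the main setting.

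By mean level per kilobase over the 6 libraries, the order was GNB2 (130.6 FPKM), GNB1 (96.8), GNAI2 (82.6), GNAS (80.2), GNG11 (65.0), GNG12 (31.1), GNG5 (27.3), GNB4 (3.40), GNAI3 (2.50) and GNG10 (0.142). Neighbours whose ranges over the libraries overlapped were GNAI2 and GNAS, GNAS and GNG11, GNG12 and GNG5, and GNB4 and GNAI3. Within libraries, GNB4 was above GNAI3 in 6 of 6 and GNAI2 above GNAS in 5 of 6. GNAS was above GNG11, and GNG12 above GNG5, in 4 of 6. Among tested protein-coding genes, the levels of GNB2, GNB1, GNAI2, GNAS and GNG11 lay between the 92.6 percentile for GNG11 and the 96.6 percentile for GNB2. GNG12 and GNG5 lay at the 84.2 and 82.1 percentiles. GNB4 and GNAI3 lay at the 29.2 and 20.4 percentiles. GNAI3 had 7686 reads in all against 3431 for GNG5, over a length of 27174 bases that its principal transcript shares.

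The order among the most abundant genes depended on the length by which reads were divided. The deposited lengths join all annotated exons, which gives GNAS 13320 bases against 1972 for its principal coding transcript and GNAI2 7650 against 2464. With the principal transcript lengths, GNAS came first at 541.5 FPKM, followed by GNAI2 (256.4), GNB2 (198.6) and GNB1 (197.4), while GNG11 stayed at 65.0. GNG12 and GNG5 were then at 33.4 and 33.0 FPKM. The ratio of the groups within a gene does not depend on the length, though the added 1 on the log2 scale weighs more where the level is low.

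Levels moved with the GC content of the transcript in 2 libraries, and among the subunit genes mainly in 1 of them. Over the 20% of tested genes with the lowest GC content, the median log2 deviation from each gene's mean was -0.14 in si-circ_0000839 replicate 1 and -0.06 in NC replicate 2, and 0.00 to 0.08 in the other 4. Over the 20% with the highest GC content it was 0.12 and 0.08, and -0.07 to -0.00 in the other 4. In si-circ_0000839 replicate 1 the AT-rich GNG12 (37.9% GC), GNB4 (39%) and GNAI3 (41.8%) lay 0.17, 0.25 and 0.22 below their means on the log2 scale. The GC-rich GNB1, GNAI2, GNAS and GNB2 lay 0.09, 0.17, 0.13 and 0.07 above theirs in the same library. In NC replicate 2, GNG12 lay 0.14 below and GNB2 0.14 above its mean, but GNB4, GNAI3, GNB1, GNAI2 and GNAS lay within 0.05 of theirs. GNG11 (42.2% GC) was highest in NC replicate 2, 0.35 above its mean. In that library the median deviation over the 20% of genes with the lowest GC content was -0.06. There GNAI3 (41.8% GC) lay at 0.004 and GNB4 (39%) at -0.014. In si-circ_0000839 replicate 1 GNG11 lay 0.242 below its mean, as the AT-rich genes did, and in replicates 2 and 3 it lay 0.195 and 0.272 below.

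After a smooth trend on GC content and length had been removed from each library, the log2 difference of GNG11 was -0.43 and that of GNB4 -0.25. The groups did not overlap for either. GNG12 was then at 0.12 and GNAI2 at 0.08, both with groups that no longer overlapped, as for 25.1% of all genes in that setting, while GNAS was at 0.01 and GNG5 at 0.02. None of these 5 other genes passed the threshold in that setting. Without both libraries that stood apart, the log2 difference of GNG11 was -0.41 and no longer passed.

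**Figure D4:**
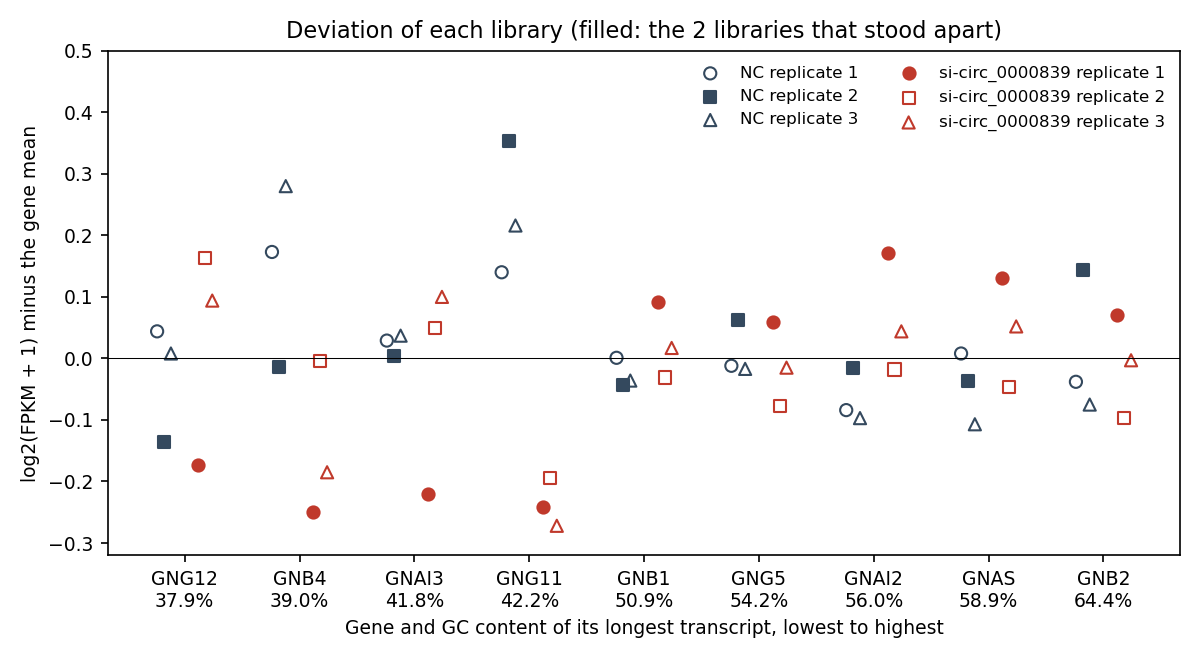
Deviation of log2(FPKM + 1) from the gene mean in each library, for the 9 tested subunit genes in order of the GC content of their longest transcript (37.9% to 64.4%). Filled marks are si-circ_0000839 replicate 1 and NC replicate 2. The former lies 0.17 to 0.25 below 0 for GNG12, GNB4, GNAI3 and GNG11. It lies 0.07 to 0.17 above 0 for GNB1, GNAI2, GNAS and GNB2.

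On chromosome 7, a gene next to GNG11 had a difference of the same direction. TFPI2, a Kunitz-type inhibitor of serine proteases, lies at chr7:93885396-93890991 on the minus strand, within the annotated span of GNGT1 and 30.7 kb from GNG11. It was at 64.09, 59.81 and 63.09 FPKM after si-circ_0000839 and 78.06, 80.4 and 83.36 in NC. The groups did not overlap, as for 7.55% of all tested genes in the lower direction. The means were 62.3 ± 2.24 and 80.6 ± 2.65 FPKM, and the log2 difference of -0.37 (SE 0.07) narrowly missed the threshold (adjusted p = 0.0526 in limma). Of 19 other settings it passed in 4, with an adjusted p in limma of 0.0126 to 0.0479. It missed in 15, with 0.0523 to 0.235, among them each library left out in turn and the replicate block (0.151). BET1, a Golgi transport protein 34.2 kb from GNG11 on the other side, was at 2.70 and 2.92 FPKM (adjusted p = 0.726 in limma). GNGT1, CALCR and COL1A2, the other protein-coding genes whose lower coordinate lies within 500 kb of that of GNG11, had 2, 1 and 1 reads in all.

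**Figure D5:**
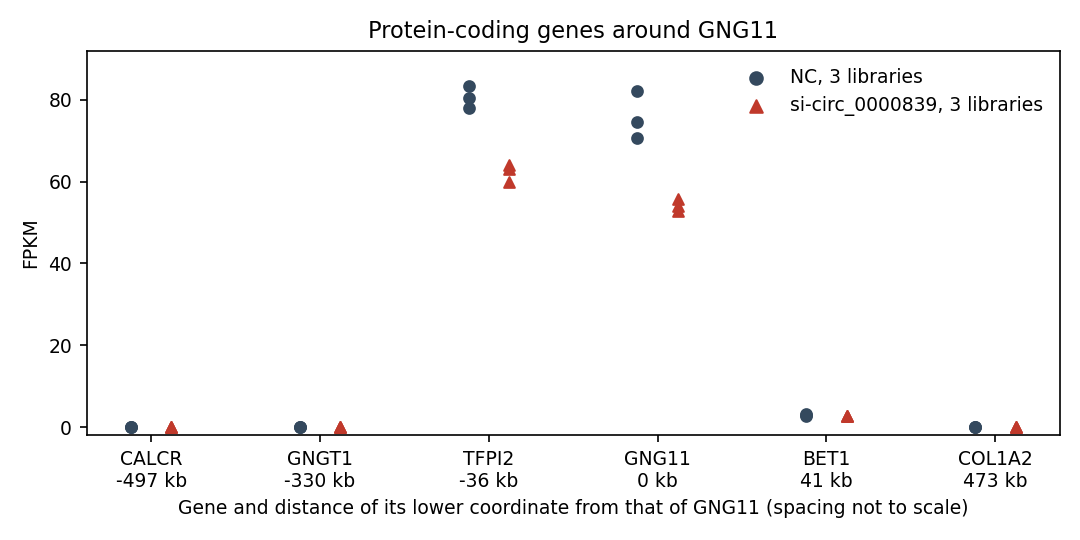
Level in each library (FPKM, linear axis) of GNG11 and the protein-coding genes around it, ordered along the chromosome with the distance from GNG11 under each name. TFPI2 and GNG11, which was chosen for its difference, are the 2 genes whose groups lie apart, as for 18.1% of all tested genes. BET1 overlaps, and GNGT1, CALCR and COL1A2 have 2 reads or fewer in all.

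Across the 6 libraries, the protein-coding genes of at least 5 FPKM whose pattern was most like that of GNG11 were MGST1 (Pearson r = 0.990), LDHA (0.986), LIPA (0.983), SLPI (0.983) and TMEM200B (0.980). These are the highest of 5776 correlations over 6 libraries that also hold the group difference and the library effects, so they describe likeness only. SLPI was called lower and the other 4 were not called. Of the other subunit genes, GNB4 had the highest correlation with GNG11 (0.70) and GNAI2 the lowest (-0.67).

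The rest of the pathway was described by 8 further lists of receptors, regulators, processing enzymes and effectors, with 84 genes tested. Of these, 1 (1.19%) was called, beside 0.384% of all tested genes, and the median log2 difference was 0.03. The lists were chosen with earlier results of these data known, so these values are a description. An unadjusted p under 0.05 was found for 8 of the 84 genes and for 12.6% of all tested genes. The called gene was the receptor P2RY6, which binds UDP and couples to Gq. It was at 16.62, 14.63 and 16.02 FPKM after si-circ_0000839 and 10.84, 11.82 and 10.77 in NC, so every si-circ_0000839 library was the higher. The level was 1.41-fold higher after si-circ_0000839 (15.8 ± 1.02 against 11.1 ± 0.587 FPKM, adjusted p = 0.0257 in limma). The call was lost in 7 of 19 settings, among them without si-circ_0000839 replicate 1 or 3 and without NC replicate 1 or 3, where the adjusted p in limma ran from 0.0842 to 0.125. Over all 7 it ran from 0.0519 to 0.208.

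The other 18 tested receptors were not called, where 0.384% of all tested genes were. The 19 (4 at an unadjusted p under 0.05, beside 12.6% of all tested genes) had a median log2 difference of 0.02. ADGRG1, an adhesion receptor that couples to G12 and G13, was the most abundant at 27.4 against 27.2 FPKM. The orphan receptor GPRC5C was at 16.3 ± 2.60 against 21.3 ± 1.74 FPKM (adjusted p = 0.203 in limma). ADGRE5, an adhesion receptor also known as CD97, was at 14.8 against 13.6 FPKM. Of 5 tested receptor kinase and arrestin genes 0 were called (0 at an unadjusted p under 0.05), with GRK2 at 11.1 against 9.99 FPKM, GRK6 at 22.4 against 24.1 and ARRB1 at 8.52 against 8.01.

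Of the tested genes that fold, load or lipid-modify the subunits 0 were called, beside 0.384% of all tested genes. In lists this small 0 calls lie near that share, so nothing is read from them. Of 15 tested folding and nucleotide exchange factors 0 were called, with a median of 0.04. Of the 15, 1 was at an unadjusted p under 0.05, beside 12.6% of all tested genes. The chaperonin subunits CCT7, CCT3 and CCT4, which help beta subunits fold, were at 181.8, 156.7 and 108.1 FPKM after si-circ_0000839 and 183.1, 152.8 and 109.8 in NC. GPSM3, which binds inhibitory alpha subunits, was at 16.3 against 13.3 FPKM (adjusted p = 0.227 in limma). Of 7 tested prenylation and CAAX processing genes 0 were called (1 at an unadjusted p under 0.05), with a median of -0.04. FDPS, which makes the farnesyl donor, was at 22.4 against 25.1 FPKM (adjusted p = 0.472 in limma). RCE1, the protease that removes the last residues of the CAAX box, was at 12.3 against 10.5 FPKM (adjusted p = 0.242 in limma), and ICMT, which methylates the exposed cysteine, was at 59.4 against 60.3.

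Among regulators and effectors, 0 of 9 tested genes of the RGS list were called, beside 0.384% of all tested genes, with a median of 0.07. Of the 9, 1 was at an unadjusted p under 0.05, beside 12.6% of all tested genes. Like the lists above, those described here are too small for 0 calls to be read as a result. RGS proteins speed GTP hydrolysis by alpha subunits, and the list also held AXIN1, at 13.6 against 12.1 FPKM. RGS10 was at 52.6 against 52.9 FPKM, RGS19 at 24.4 against 22.3, and RGS14 at 2.54 against 1.95 (adjusted p = 0.321 in limma). Of 12 effector genes 0 were called (0 at an unadjusted p under 0.05); PLCB3, a phospholipase C that responds to Gq and to the beta-gamma dimer, was at 19.7 against 18.3 FPKM, and ADCY3, an adenylyl cyclase of the same list, at 9.62 against 9.11. Of 13 genes of the cAMP machinery 0 were called (0 at an unadjusted p under 0.05), with the protein kinase A subunit PRKAR1A at 20.4 against 20.1 FPKM. Of 4 tested CREB target genes 0 were called (1 at an unadjusted p under 0.05), with DUSP1 at 12.3 against 13.5 FPKM and AREG at 0.984 against 1.58 (adjusted p = 0.246 in limma).

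Markers of cell identity were read beside these results. The thyroid transcription factor PAX8 was at 96.3 ± 5.26 FPKM after si-circ_0000839 and 95.8 ± 2.21 in NC, while NKX2-1, TSHR and SLC5A5 had 0 reads. In the thyroid list 3 of 8 markers, PAX8 among them, were at 1 FPKM or more. Its sum ran from 105.3 to 117.2 FPKM after si-circ_0000839 and from 107.4 to 111.2 in NC. GNG11 is also known from endothelial cells and platelets, whose defining markers PECAM1 and CDH5 were under 0.1 FPKM in both group means and PF4, PPBP and GP9 at 0 reads. The summed endothelial list ran from 4.76 to 5.17 FPKM after si-circ_0000839 and from 3.48 to 3.87 in NC, with ROBO4 as the 1 of 10 markers at 1 FPKM or more. The platelet list ran from 46.0 to 48.4 and from 42.0 to 44.7 FPKM, with ITGB3 as the 1 of 8. The fibroblast list ran from 21.5 to 25.7 FPKM after si-circ_0000839 and from 26.4 to 31.4 in NC, lower in sum as GNG11 was, with LUM and FBLN1 as the 2 of 8 markers above 1 FPKM. LUM was at 15.8 ± 2.40 against 22.5 ± 2.54 FPKM with groups that did not overlap (adjusted p = 0.108 in limma), whereas FBLN1 was at 6.52 against 6.07 and COL1A1 at 0.565 against 0.370, with DCN below 0.01. The part of the LUM difference in the GNG11 value was not tested. The leukocyte list was below 1 FPKM in every library, with 0 of 8 markers at 1 FPKM and PTPRC at 0 reads. Only the markers at 1 FPKM or more were tested, and 0 of them were called, beside 0.384% of all tested genes. The other markers could not be called.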

How the data were processed

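TPC1 RNA was sequenced in 3 si-circ_0000839 and 3 NC libraries, grouped by the sample titles. The authors deposited 1 table of FPKM for 58735 genes with gene lengths and positions, per the file headers. The submitters' processing notes name HISAT2 2.0.5 and featureCounts 1.5.0-p3. The build, strand setting and scaling were not given in the sources used here. All 58735 genes had the same position in GENCODE release 29, so coordinates are GRCh38, and the deposited lengths equal the joined exons of that release. Reads were recovered from FPKM and length, whole within 0.01 for 100% of values. Low read numbers limit the precision most for GNG10.

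Two-sided tests used limma 3.58.1 (R 4.3.3, trended prior) on log2(FPKM + 1). Genes entered at an average of 1 FPKM or more across the 6 libraries, with Benjamini-Hochberg adjustment over all 10674 genes. Folds are ratios of mean FPKM. The fit was tried on simulated reads with a spread fixed alike for all genes and no GC trend. The libraries here did show a GC trend, so nothing about their calls is read from that trial. The members and gene lists were chosen with earlier results of these data known, as was leaving out 2 libraries together. Named genes are the 10 members, subunit genes of at least 1 FPKM, called and most abundant genes of each list, genes that overlap a member, protein-coding genes starting within 500 kb of GNG11, the 5 genes most like it and cell type markers. Not every gene this rule takes is discussed, and 1 marker and 1 sequence are not reported here. GC content is that of the longest transcript. Coding sequences were aligned with Biopython 1.88. Removing a GC and length trend (splines of 5 degrees of freedom) and using principal transcript lengths were chosen after seeing the data.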

Additional observations from a re-analysis of the deposited data

How the results depend on the processing

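The call count moved with the settings. Against 41 genes in the main setting, limma called 4 with no filter, 68 at a minimum of 5 FPKM, 63 after quantile normalization, 85 with voom on recovered reads, 26 without the 2 libraries that stood apart, 220 with the GC and length trend removed, 102 with that trend removed and a replicate block, 35 with the replicate block alone, and 20 to 38 with each library left out in turn. After rescaling to TPM, 58.2% of 55 calls were higher, against 34.1% of 41. The difference of GNG11 kept its sign in all 19 settings (-0.52 to -0.41) and passed in 13. It missed with no filter (-0.47), with the replicate block (-0.47) and without the 2 libraries (-0.41). It also missed in 3 of the 6 fits that left out 1 library each, with differences of -0.48 to -0.46. The cause was not tested. In the former 3 settings 0 subunit genes and 0 genes of the 8 other lists were called, and 0 to 1 of each when a library was left out. With the GC and length trend removed, 3 list genes were called, P2RY6, GPSM3 and GPRC5C. The 8 other tested subunit genes stayed uncalled in all of their 150 values, though GNG5, GNB2, GNAI3 and GNG12 changed sign in some. Replicate numbers did not pair the libraries (correlations -0.15, -0.29 and 0.15; 1 of 6 libraries correlated best with its own number). The planned count-model tests on the recovered reads were not run.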
